A study of Mus musculus with 12 samples.

Results

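The phase II conjugation enzymes considered here are the glutathione transferases, UDP-glycosyltransferases and sulfotransferases measured in mouse liver by microarray. They were taken as all genes with a symbol of the Gst, Mgst, Ugt or Sult families, wherever a probe set was annotated with that symbol alone, and a gene with several probe sets was read at the brightest of them on average. This gave 40 of the 12393 genes on the array: 21 glutathione transferases, 8 UDP-glycosyltransferases and 11 sulfotransferases. Their 52 probe sets include 12 that were not chosen to represent a gene. No Ugt1 gene is among them, because the 3 probe sets of that locus each list 8 Ugt1a genes together. These 3, and 2 others that list several family symbols, were left out, and limma called none of the 5 in any contrast.

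Phase II enzymes attach a large polar group to drugs, toxins, hormones and bile pigments so that bile or urine can carry them away. Glutathione transferases add the tripeptide glutathione to electrophiles, and methylating agents are among the electrophiles with which glutathione can react. UDP-glycosyltransferases add a sugar, for the Ugt2 family glucuronic acid, to steroids, bile acids and drugs, and sulfotransferases add sulfate from the donor PAPS to phenols, steroids and thyroid hormone. The liver expresses most of these enzymes strongly, mainly in hepatocytes.

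The mice were C57Bl/6J, 6 to 8 weeks of age, with 3 animals and 3 arrays in each of 4 groups. The groups were MMS-treated Aag knock-out, control Aag knock-out, MMS-treated wild type and control wild type. MMS (methyl methanesulfonate), a direct DNA-methylating agent, was given as a single intraperitoneal dose of 75 mg/kg and the liver was taken 6 hours later. Aag (gene symbol Mpg) is a glycosylase that starts base excision repair by cutting out alkylated bases. The sources used here do not say whether controls were injected, which sex the animals were or at what hour livers were taken. Values are log2 expression values, ± after a group mean is the SD (n = 3), and ± after a difference is the standard error of the fit by limma, whose p-values are adjusted over 22626 probe sets and called below 0.05.

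The knocked-out gene, Mpg, differed by -1.17 between knock-out and wild-type arrays at its better separated probe set (2.25-fold lower, highest knock-out value 5.755, lowest wild-type value 6.208, exact two-sided permutation p = 0.005 over 400 regroupings, the smallest they can give). Its other probe set overlapped between genotypes (-0.31). Array medians ran between 7.42 and 7.75. Across all probe sets 3 arrays were closest to an array of another group: MMS-treated knock-out array 3, control knock-out array 3 and MMS-treated wild-type array 1. The values below are therefore also given without both knock-out arrays numbered 3 where this changes a call. Both were picked because they resembled arrays of other groups, so leaving them out favours larger differences and more calls. Calls made in that setting are description only. MMS-treated wild-type array 1 was left out only on its own. Albumin (Alb) read 14.2 to 14.6 in all arrays, and none of 14 hepatocyte markers was called in either MMS response.

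Of the 40 genes, 9 lie among 13 consecutive protein-coding genes on mouse chromosome 5, all of them Ugt2 or Sult1 genes. The 250 bases upstream of the start site (RefSeq, GRCm38.p6) are shown for 3 Ugt2b genes of this cluster, of which Ugt2b37 and Ugt2b38 had lower values after MMS and Ugt2b5 did not, and for Sult1d1, which fell. In the Ugt2b lines capitals mark a 62-base run that all 3 share, and in the Sult1d1 line they mark the core of the AHR element (GCGTG, here on the opposite strand as CACGC). The windows are chr5:87254789-87255038, chr5:87424204-87424453, chr5:87140341-87140590 and chr5:87569007-87569256 in the order printed, all on the minus strand and written 5′ to 3′ in the direction of transcription.
Ugt2b37: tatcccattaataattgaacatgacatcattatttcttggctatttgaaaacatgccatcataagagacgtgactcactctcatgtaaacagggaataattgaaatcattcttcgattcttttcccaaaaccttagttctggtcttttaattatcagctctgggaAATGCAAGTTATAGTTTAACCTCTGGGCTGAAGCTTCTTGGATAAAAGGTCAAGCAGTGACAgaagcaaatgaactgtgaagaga
Ugt2b38: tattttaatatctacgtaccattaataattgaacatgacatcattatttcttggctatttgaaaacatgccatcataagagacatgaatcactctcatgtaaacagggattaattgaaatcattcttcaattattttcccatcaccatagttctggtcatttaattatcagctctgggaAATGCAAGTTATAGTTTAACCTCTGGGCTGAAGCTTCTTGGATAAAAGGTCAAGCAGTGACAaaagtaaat
Ugt2b5: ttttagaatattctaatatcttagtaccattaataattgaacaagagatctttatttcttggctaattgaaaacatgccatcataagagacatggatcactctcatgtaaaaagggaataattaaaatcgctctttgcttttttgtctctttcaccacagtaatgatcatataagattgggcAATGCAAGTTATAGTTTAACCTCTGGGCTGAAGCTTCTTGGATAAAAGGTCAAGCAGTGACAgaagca
Sult1d1: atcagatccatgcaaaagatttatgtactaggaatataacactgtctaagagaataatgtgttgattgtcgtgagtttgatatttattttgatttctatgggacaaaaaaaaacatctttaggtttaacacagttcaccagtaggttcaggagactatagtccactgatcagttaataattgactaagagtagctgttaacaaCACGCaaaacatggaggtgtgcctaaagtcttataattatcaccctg

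The upstream windows of Ugt2b37 and Ugt2b38 were 85.2% identical, those of Ugt2b38 and Ugt2b5 81.5%, and those of Ugt2b37 and Ugt2b5 73.0%. All other pairs among the 6 Ugt2 members were between 47.2% and 54.0%. The shared 62-base run was found in 3 promoters of 3 genes in the whole table, those printed above. Transcripts of such close paralogs can also share probes, so values of Ugt2b37 and Ugt2b38 may not be wholly separate measurements. Promoter entries (250 bases before to 50 after a start site, 32851 promoters of 27025 genes) were found for 35 of the 40 genes. On both strands, the AHR core GCGTG was in 9 of the 35 genes (25.7%) and in 35.15% of all genes, and the antioxidant response element core TGACNNNGC was in 4 (11.4%) and in 13.99% of all genes. The D-box TTATGTAA was in 1 member, Ugt2b1 (2.86%), and in 1.11% of all genes. The E-box CACGTG was in 0 of the 35, against 8.09% of all genes. TGACNNNGC and GCGTG matches can overlap, and do so in Gstm5. These matches are letters in a window and say nothing of binding.

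**Figure D1:**
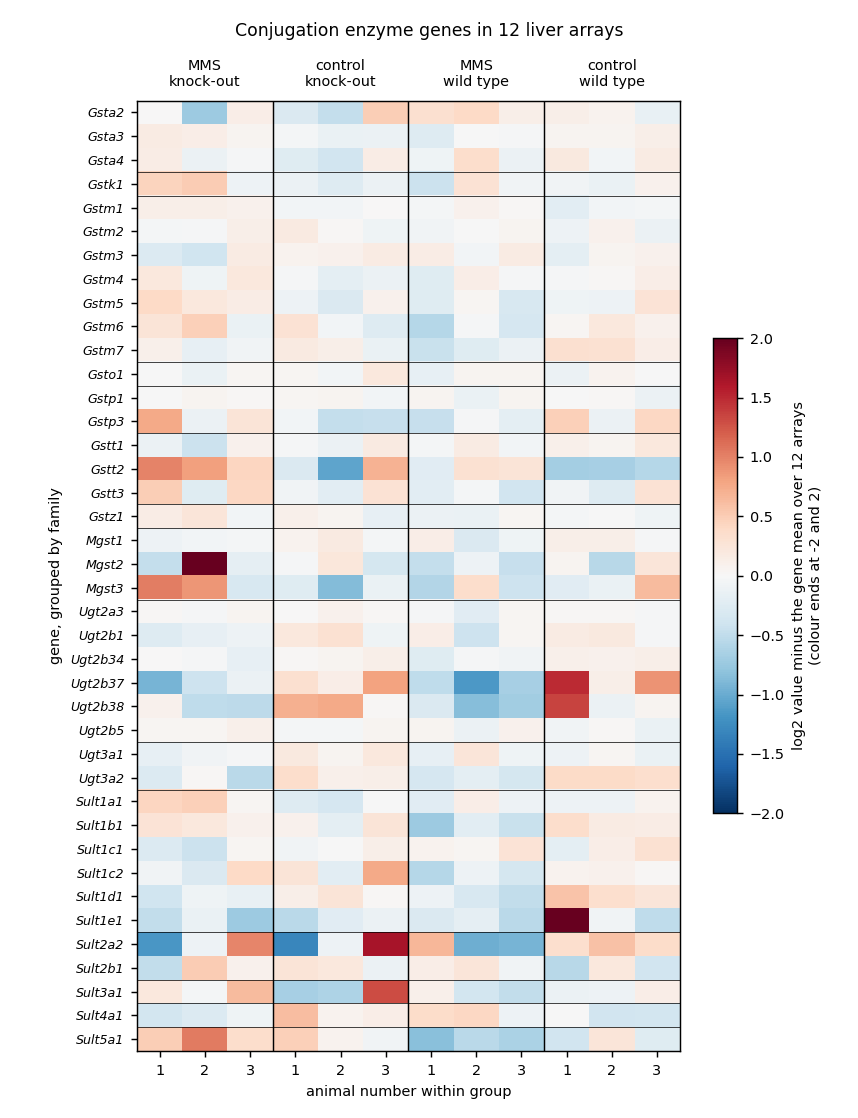
Log2 expression of the 40 conjugation genes in each of the 12 arrays, as the difference from the gene's own mean over all arrays (blue lower, red higher, colours ending at -2 and 2), with genes in rows by family and arrays in columns by group. The Ugt2b37 and Ugt3a2 rows are lower in all 6 MMS arrays than in all 6 control arrays, and single dark red cells mark Sult1e1 in control wild-type array 1 and Mgst2 in MMS-treated knock-out array 2.

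In wild-type liver, MMS was followed by lower levels of 5 conjugation genes and by no higher call. Ugt2b37, Sult1d1, Ugt3a2, Sult1b1 and Gstm7 fell, 5 of 40, where limma called 6.44% of all probe sets (4.45% lower and 1.99% higher). By class, 2 of 8 UDP-glycosyltransferases, 2 of 11 sulfotransferases and 1 of 21 glutathione transferases fell. At an unadjusted p below 0.05 there were 8, against 23.2% of all probe sets. Groups did not overlap for 12 genes, 11 lower and 1 higher, against 31.8% of all probe sets. As deposited, 29 of the 40 changes were negative, with a median of -0.16 beside -0.05 over all probe sets. That balance depends on the scaling: after centring each array on its median, 18 were negative, with a median of 0.04 beside 0.14 over all probe sets, and only Ugt2b37 was still called. With 1 array left out, no gene was called without control wild-type array 1, control wild-type array 3 or MMS-treated wild-type array 3. The count was 1 (Ugt2b37) without control wild-type array 2, 2 (Sult1d1, Ugt2b37) without MMS-treated wild-type array 1 and 2 (Sult1b1, Ugt3a2) without MMS-treated wild-type array 2.

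In Aag knock-out liver 0 of the 40 genes were called by limma after MMS, where 1.51% of all probe sets were called. At an unadjusted p below 0.05 there were 11, 6 higher and 5 lower, against 24.8% of all probe sets, and groups did not overlap for 13, against 26.7%. Without both knock-out arrays numbered 3, 4 genes were called, all higher (Gstt2, Sult1a1, Mgst3 and Sult3a1), where 14.7% of all probe sets were called and 8.77% were called higher. The count was 3 (Gstk1, Mgst3, Sult1a1) without MMS-treated knock-out array 3 alone and 1 (Gstt2) without control knock-out array 3 alone. With a trended robust variance it was 1 (Sult1a1).

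Averaged over both genotypes, 5 of 40 genes were called after MMS, 4 lower and 1 higher, against 11.3% of all probe sets (6.66% lower and 4.61% higher). Ugt3a2, Ugt2b37, Sult1d1 and Ugt2b38 fell and Gstt2 rose. At an unadjusted p below 0.05 there were 9, 2 higher and 7 lower, against 27.6% of all probe sets. In 4 genes all 6 MMS arrays were below all 6 control arrays (Ugt2b37, Ugt3a2, Sult1d1 and Ugt2b34), and in none were they above, while 5.12% of all probe sets were apart in this way (3.31% lower). Ugt3a2, Ugt2b37 and Sult1d1 were called in each of the 12 fits that left out 1 array and under each of the 7 other alternatives. Ugt2b38 and Gstt2 were each called in 3 of those 12 fits, and the count was 3 without control wild-type array 1 or 3, without MMS-treated wild-type array 2 or 3, or without knock-out array 1 or 2 of either treatment. Without both knock-out arrays numbered 3 it was 7, with Sult1a1 called higher (0.37 ± 0.10, adjusted p = 0.0302) and Gstm7 lower (-0.34 ± 0.10, adjusted p = 0.0463) beside the 5, where 18.5% of all probe sets were called and 8.82% were called higher.

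**Figure D2:**
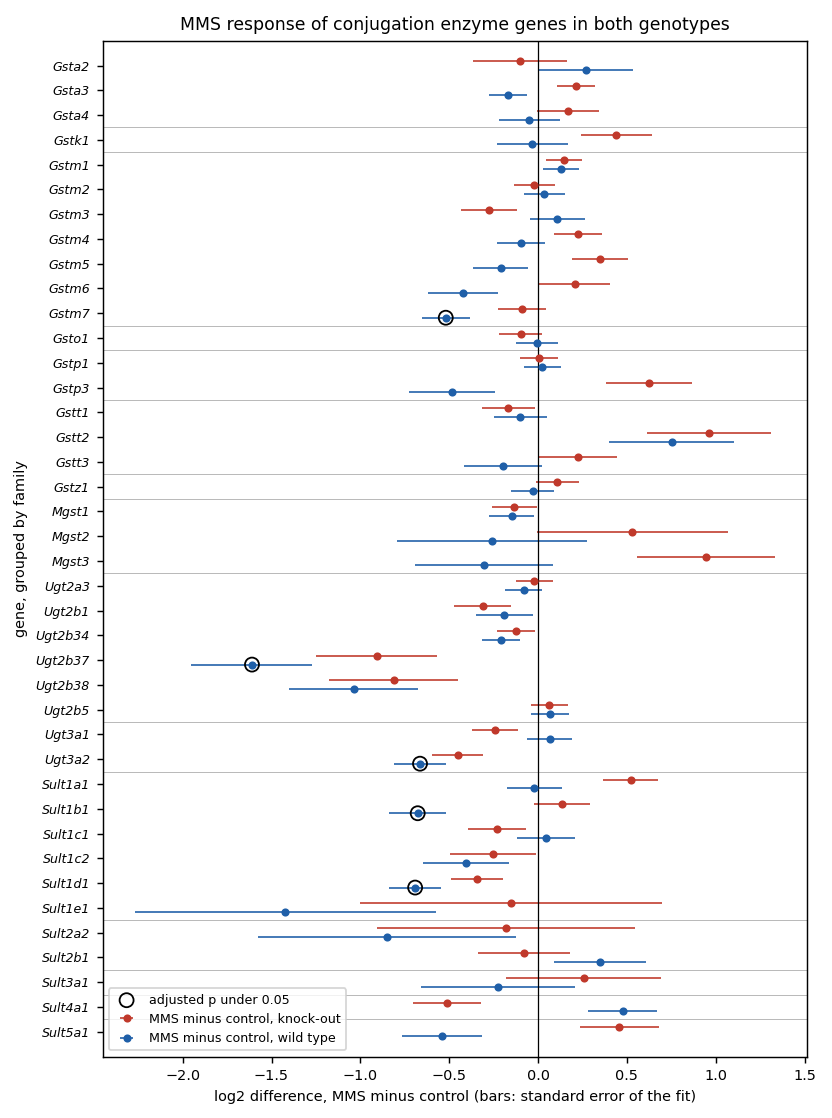
MMS response of each of the 40 genes on the log2 scale, MMS minus control, in knock-out (red) and wild-type (blue) liver, with bars for the standard error of the fit and rings around responses with an adjusted p below 0.05. The 5 rings are all in wild-type liver and all below 0, from Ugt2b37 at -1.61 to Gstm7 at -0.52.

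Among the UDP-glycosyltransferases, Ugt2b37, a member of the steroid-conjugating Ugt2b subfamily, had the largest called change. In wild-type liver it read 7.82, 7.17 and 7.67 after MMS, against 9.82, 8.45 and 9.22 in controls. In knock-out liver it read 7.39, 7.91 and 8.21 after MMS, against 8.64, 8.46 and 9.13 in controls. The highest MMS value lay below the lowest control value in both genotypes. Ugt2b37 fell by 1.61 ± 0.34 in wild-type liver (3.05-fold, adjusted p = 0.0228) and by 1.26 ± 0.24 averaged over genotypes (adjusted p = 0.00989). The knock-out difference alone was -0.91 ± 0.34 (adjusted p = 0.137). In wild-type liver it was called in 8 of the 12 fits without 1 array.

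Ugt2b38, its close paralog, read 9.10, 8.55 and 8.70 in MMS-treated wild-type liver, against 10.74, 9.28 and 9.45 in control wild-type liver. Its values were 9.48, 8.88 and 8.86 in MMS-treated knock-out liver, against 10.10, 10.14 and 9.42 in control knock-out liver. The wild-type groups did not overlap and the knock-out groups did, by control array 3. Ugt2b38 fell by 0.93 ± 0.26 averaged over genotypes (adjusted p = 0.0415), while the differences within each genotype, -1.04 ± 0.36 in wild type and -0.81 ± 0.36 in knock-out, were not called (adjusted p = 0.114 and 0.194). The neighbouring Ugt2b5, with the shared run upstream, averaged 13.60 over all arrays, with responses of 0.07 in wild-type and 0.06 in knock-out liver. That level is near the top of the scale, where the table's highest value is 14.9 and differences may be compressed, so the contrast with Ugt2b37 and Ugt2b38 is between probe sets at different brightness.

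Ugt3a2 belongs to the Ugt3 family, whose human members use sugars other than glucuronic acid. It read 11.99, 12.12 and 11.96 in MMS-treated wild-type liver, against 12.70, 12.71 and 12.65 in control wild-type liver. In knock-out liver it read 12.05, 12.34 and 11.79 after MMS, against 12.67, 12.43 and 12.44 in controls. No MMS value reached any control value. Ugt3a2 fell by 0.66 ± 0.14 in wild-type liver (1.59-fold, adjusted p = 0.0242) and by 0.56 ± 0.10 averaged over genotypes (adjusted p = 0.00806), and its knock-out difference was -0.45 ± 0.14 (adjusted p = 0.0970). Its neighbour Ugt3a1 had responses of 0.06 in wild-type and -0.24 in knock-out liver, and neither was called. A second Ugt3a1 probe set (mean 11.23) stood at 0.02 in wild-type and -0.53 ± 0.14 in knock-out liver. Neither of these was called by limma (adjusted p = 0.0694 in knock-out liver).

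The other Ugt2 genes showed small differences. Ugt2b34 differed by -0.21 ± 0.11 in wild-type liver, and its 6 MMS values (highest 13.2558) lay just below its 6 control values (lowest 13.2642). Ugt2b1 stood at -0.19 in wild-type and -0.31 in knock-out liver and Ugt2a3 at -0.08 and -0.02 in that order, none of them called. Averaged over the 8 UDP-glycosyltransferases as differences from each gene's own mean, arrays read -0.18, -0.15 and -0.16 in MMS-treated knock-out liver and 0.22, 0.18 and 0.16 in control knock-out liver. They read -0.17, -0.34 and -0.21 in MMS-treated wild-type liver and 0.42, 0.10 and 0.14 in control wild-type liver. The class mean was thus below 0 in every MMS array and above 0 in every control array, with Ugt2b37, Ugt2b38 and Ugt3a2 carrying the larger differences. Over all probe sets, wild-type arrays had the same signs: -0.06, -0.03 and -0.05 after MMS, against 0.04, 0.03 and 0.05 in controls. Knock-out arrays read -0.09, 0.01 and 0.04, against -0.04, -0.001 and 0.11. After median centring, 4 of the 8 wild-type responses were positive (class median -0.01) and 0 of the 8 knock-out responses (class median -0.34).

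**Figure D3:**
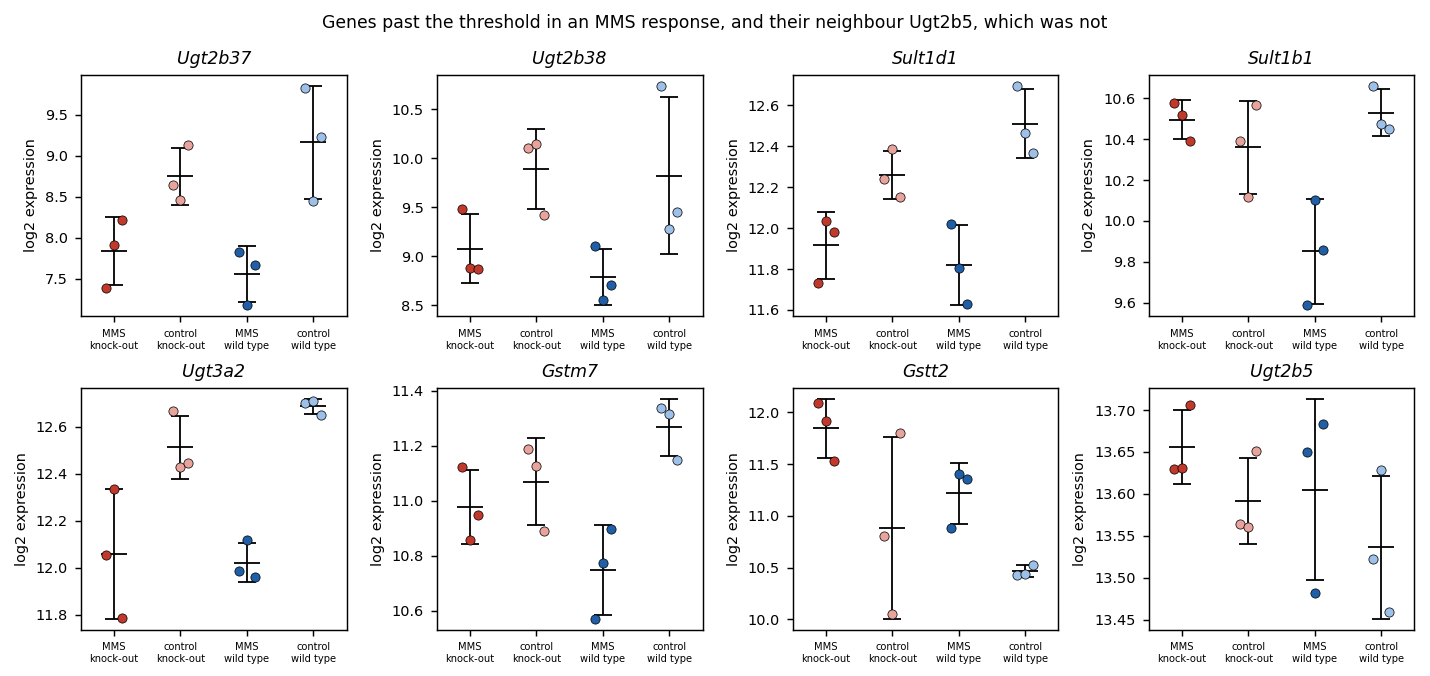
Log2 values in every array of the 7 genes called in an MMS response, and of Ugt2b5, the neighbour that was not called (points are arrays, horizontal bars at the centre group means, capped vertical bars the SD of 3 arrays, and vertical axes differ between panels and do not start at 0). MMS groups stand left of their controls in each genotype, and for Ugt2b37, Ugt3a2 and Sult1d1 all MMS points lie below all control points.

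Among the sulfotransferases, Sult1d1, which in mice sulfates catecholamines, read 12.02, 11.81 and 11.63 in MMS-treated wild-type liver, against 12.70, 12.47 and 12.37 in control wild-type liver. In knock-out liver it read 11.73, 12.03 and 11.98 after MMS, against 12.24, 12.39 and 12.15 in controls. The groups did not overlap in either genotype. Sult1d1 fell by 0.69 ± 0.15 in wild-type liver (1.61-fold, adjusted p = 0.0228) and by 0.52 ± 0.10 averaged over genotypes (adjusted p = 0.0117). Its second probe set also fell, by 1.06 in wild-type liver (adjusted p = 0.00524) and by 0.61 averaged (adjusted p = 0.00704), but stood at only -0.15 in knock-out liver.

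Sult1b1, a sulfotransferase of thyroid hormones and phenols and the gene next to Sult1d1, was low in a single group. It read 9.59, 10.10 and 9.86 in MMS-treated wild-type liver, against 10.66, 10.47 and 10.45 in control wild-type liver. Knock-out arrays read 10.58, 10.52 and 10.39 after MMS, against 10.39, 10.12 and 10.57 in controls. Sult1b1 fell by 0.68 ± 0.16 in wild-type liver (1.60-fold, adjusted p = 0.0331), and its knock-out difference was 0.14 ± 0.16. The difference between the responses was 0.81 ± 0.23 and was not called (adjusted p = 0.149).

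Sult1a1, the main phenol sulfotransferase, read 12.97, 13.03 and 12.59 in MMS-treated knock-out liver, against 12.29, 12.20 and 12.53 in control knock-out liver. Its wild-type arrays read 12.32, 12.67 and 12.45 after MMS, against 12.45, 12.44 and 12.61 in controls. The knock-out groups were apart by a narrow margin at array 3 of each, and the wild-type groups overlapped. The knock-out difference of 0.52 ± 0.15 was not called (adjusted p = 0.0860), and was 0.75 ± 0.15 (adjusted p = 0.0177) without both knock-out arrays numbered 3.

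**Figure D4:**
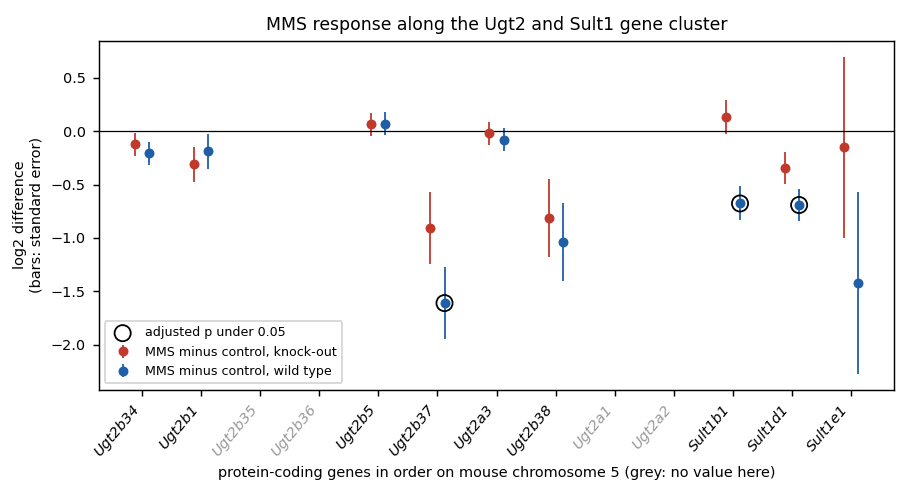
MMS responses on the log2 scale (vertical axis, bars for the standard error of the fit) along 13 neighbouring protein-coding genes of mouse chromosome 5 in their order, with knock-out in red, wild type in blue, rings for an adjusted p below 0.05 and grey names for genes with no value here. In wild-type liver all plotted genes except Ugt2b5 lie below 0. Apart from Sult1e1, whose value rests on 1 control array, Ugt2b37, Ugt2b38, Sult1b1 and Sult1d1 lie furthest below. Ugt2a3 lies near 0 between Ugt2b37 and Ugt2b38, and Ugt2b5 near 0 beside Ugt2b37.

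Several sulfotransferases were near the low end of the scale or were set by 1 array. Of the 40 genes 7 had a mean below 6: Mgst2, Sult1c1, Sult1e1, Sult2a2, Sult2b1, Sult3a1 and Sult4a1, and without a detection call it is not known which were measured above background. Sult1e1, the estrogen sulfotransferase, read 9.33 in control wild-type array 1 and between 4.78 and 5.44 in the other 11 arrays, so its wild-type difference of -1.42 ± 0.85 (adjusted p = 0.347) rests on that array. Sult2a2 and Sult3a1, genes of hydroxysteroid and amine sulfotransferases that are stronger in female mouse liver, read 6.98 and 5.503 in control knock-out array 3, above all their other values. The Y-linked transcript Eif2s3y read 10.77 to 11.45 in all 12 arrays. Sult3a1 had a knock-out difference of 0.26 with array 3 and 0.72 ± 0.20 without both arrays numbered 3 (adjusted p = 0.0471). The other sulfotransferases, Sult1c1, Sult1c2 and Sult2b1, had MMS responses between -0.41 and 0.35, none called.

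Among the glutathione transferases, Gstm7, a mu class enzyme, read 10.57, 10.77 and 10.90 in MMS-treated wild-type liver, against 11.34, 11.31 and 11.15 in control wild-type liver. Knock-out arrays read 11.12, 10.86 and 10.95 after MMS, against 11.19, 11.13 and 10.89 in controls. The wild-type groups did not overlap and the knock-out groups did. Gstm7 fell by 0.52 ± 0.14 in wild-type liver (1.43-fold, adjusted p = 0.0464). Its second probe set, at a mean of 6.45, went the other way without a call (0.60 ± 0.50), so the mean of both probe sets differed by 0.041, and close relatives of the mu class may share probes.

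Gstt2, a theta class enzyme that acts on small electrophiles, was the single conjugation gene that rose with all arrays in the fit. It read 12.09, 11.92 and 11.53 in MMS-treated knock-out liver, against 10.81, 10.05 and 11.80 in control knock-out liver. In wild-type liver it read 10.88, 11.41 and 11.36 after MMS, against 10.43, 10.43 and 10.53 in controls. Control knock-out array 3 lay within the MMS range and was the only control above 10.81. Gstt2 rose by 0.86 ± 0.25 averaged over genotypes (1.81-fold, adjusted p = 0.0483), with 0.96 ± 0.35 in knock-out and 0.75 ± 0.35 in wild-type liver, neither called (adjusted p = 0.128 and 0.227). Without both knock-out arrays numbered 3 the knock-out difference was 1.57 ± 0.26 (adjusted p = 0.0131).

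Mgst3, a microsomal glutathione transferase, read 8.55, 8.41 and 7.21 in MMS-treated knock-out liver, against 7.28, 6.65 and 7.40 in control knock-out liver. Its knock-out difference was 0.95 ± 0.39 (adjusted p = 0.165) with all arrays and 1.52 ± 0.37 (adjusted p = 0.0312) without both arrays numbered 3. A second Mgst3 probe set at a mean of 4.40 showed 0.02. Mgst2 read 7.30 in MMS-treated knock-out array 2 and between 4.64 and 5.44 elsewhere. Mgst1, another microsomal form, stood at -0.15 ± 0.13 in wild-type liver at a probe set averaging 13.57. Its dimmer second probe set (mean 9.32) fell there by 0.59 ± 0.13 (adjusted p = 0.0287). That second probe set was also called lower averaged over genotypes (-0.36 ± 0.09, adjusted p = 0.0333). It stood at -0.14 ± 0.13 in knock-out liver and at -0.50 ± 0.13 for Aag loss without MMS, neither called (adjusted p = 0.547 and 0.422).

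The remaining glutathione transferases, except Gstp3 given below, showed small differences in both genotypes at the probe sets chosen. Gstp1, the pi class enzyme, averaged 14.33, with responses of 0.02 in wild-type and 0.01 in knock-out liver. Gstm1, the mu class enzyme often used as a marker of NRF2 activity, stood at 0.13 in wild-type and 0.14 in knock-out liver. Gsta4, which conjugates the lipid peroxidation product 4-hydroxynonenal, stood at -0.05 and 0.17 in the same order, and Gstt1 at -0.10 and -0.17. Gsto1, a thioltransferase, and Gstz1, an enzyme of tyrosine breakdown, were within 0.11 of 0 in both genotypes. Gsta2, Gstk1, Gstm2 to Gstm6 and Gstt3 had responses between -0.42 and 0.44 in both genotypes, none called. Some other probe sets differed more, also without a call. For Gstm3 another (mean 9.49) stood at 0.66 ± 0.29 in knock-out liver, against -0.28 at the chosen probe set. For Gstm1 another (mean 12.22) stood at 0.37 ± 0.14 in wild-type and 0.28 ± 0.14 in knock-out liver. Further Gstm1 probe sets stood at 0.13 and 0.11 (mean 13.74) and at 0.44 and -0.47 (mean 4.32). For Gsto1 another stood at -0.31 ± 0.15 in knock-out liver. The 9 genes with a mean above 13 (Gsta3, Gstm1, Gstm3, Gstp1, Gstt1, Mgst1, Ugt2b1, Ugt2b5 and Ugt2b34) are close to the upper end of the scale, so small differences there may be understated.

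In knock-out liver the 21 glutathione transferases had a median response of 0.17 with 14 positive and 7 negative, the 8 UDP-glycosyltransferases -0.28 with 1 positive and 7 negative, and the 11 sulfotransferases -0.15 with 4 positive and 7 negative, beside -0.06 over all probe sets. The sulfotransferase balance turned with the setting: it was 7 positive and 4 negative with a median of 0.0405 after quantile normalization, and 6 positive and 5 negative with a median of 0.0658 without both knock-out arrays numbered 3. In wild-type liver the medians were -0.09, -0.20 and -0.41 in the same order of classes, beside -0.05 over all probe sets. After median centring, the wild-type medians were 0.10, -0.01 and -0.21, beside 0.14. The conjugation genes had a median SD within groups of 0.189, against 0.234 over all genes at 1 probe set each and 0.242 over all probe sets. Their SD ran from 0.0613 (Gstm1) to 1.21 (Sult1e1). Brightness was not taken into account in this comparison.

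Loss of Aag without MMS left no conjugation gene past the threshold: limma called 0 of 40, where 0.0398% of all probe sets were called (0.0177% higher and 0.0221% lower), with 2 at an unadjusted p below 0.05 against 7.16% of all probe sets. The 3 with the smallest p were Sult4a1, a brain-enriched sulfotransferase (4.93 ± 0.30 in control knock-out and 4.40 ± 0.21 in control wild-type liver, difference 0.53, adjusted p = 0.570), Gstp3, a pi class gene (9.89 ± 0.24 and 10.47 ± 0.33, difference -0.58, adjusted p = 0.637), and Sult1d1 (12.26 ± 0.12 and 12.51 ± 0.17, difference -0.25, adjusted p = 0.784). Groups did not overlap for 3 genes, 2 higher and 1 lower in knock-out, against 18.3% of all probe sets (7.52% higher and 10.8% lower).

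With MMS, 0 of 40 genes were called between knock-out and wild-type liver, where limma called 0.0177% of all probe sets (0.00442% higher and 0.0133% lower), with 6 at an unadjusted p below 0.05 against 18.4%. Sult5a1, a sulfotransferase of little known function, came closest. It read 11.49, 12.04 and 11.35 in MMS-treated knock-out liver, against 10.17, 10.47 and 10.38 in MMS-treated wild-type liver. Control arrays read 11.49, 11.08 and 10.94 in knock-out, against 10.63, 11.25 and 10.77 in wild type. The MMS-treated genotypes did not overlap and the controls did. The difference with MMS was 1.29 ± 0.22 (2.44-fold, adjusted p = 0.0793), and 1.42 ± 0.24 (adjusted p = 0.0276) without both knock-out arrays numbered 3, a setting in which Sult1b1 was also called higher (0.70 ± 0.17, adjusted p = 0.0476) and 5.98% of all probe sets were called, 3.87% higher. Sult5a1 was also called when probe sets with a mean below the 25th percentile were left out, with a trended robust variance and without MMS-treated knock-out array 3 alone. With all arrays Sult1b1 stood at 0.64 ± 0.16 (adjusted p = 0.116) and Gstm5, a mu class gene, at 0.43 ± 0.16 (adjusted p = 0.200). Groups did not overlap for 7 genes, 6 of them higher and 1 lower in knock-out, against 17.6% of all probe sets (9.92% higher and 7.71% lower).

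Averaged over treatments, 0 of 40 genes were called by limma for Aag loss, where 0.0265% of all probe sets were (0.00884% higher and 0.0177% lower), with 1 at an unadjusted p below 0.05 against 7.90%. That gene was Sult5a1 (0.79 ± 0.16, adjusted p = 0.209), followed by Gstt2 (0.52 ± 0.25, adjusted p = 0.648) and Sult1b1 (0.24 ± 0.11, adjusted p = 0.650).

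The difference between the MMS responses, knock-out minus wild type, was called by limma for 0 of 40 genes and for 0% of all probe sets. At an unadjusted p below 0.05 there were 10, 9 of them higher and 1 lower, against 17.7% of all probe sets. The 3 with the smallest p were Sult4a1 (-0.99 ± 0.27, adjusted p = 0.147), Sult1b1 (0.81 ± 0.23, adjusted p = 0.149) and Gstp3 (1.11 ± 0.34, adjusted p = 0.170). Gstp3 read 10.98, 10.10 and 10.48 in MMS-treated knock-out liver, against 10.17, 9.75 and 9.77 in control knock-out liver, and 9.75, 10.19 and 10.03 in MMS-treated wild-type liver, against 10.69, 10.10 and 10.64 in control wild-type liver. Its groups overlapped within each genotype. The median difference was 0.21 over the 40 genes and 0.05 over all probe sets, and after median centring -0.05 over the genes and -0.21 over all probe sets. Without both knock-out arrays numbered 3 none of the 40 was called, where 2.27% of all probe sets were called and 1.47% were called higher. The calls in wild-type liver and the absence of calls in knock-out liver thus do not show that the responses differ.

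**Figure D5:**
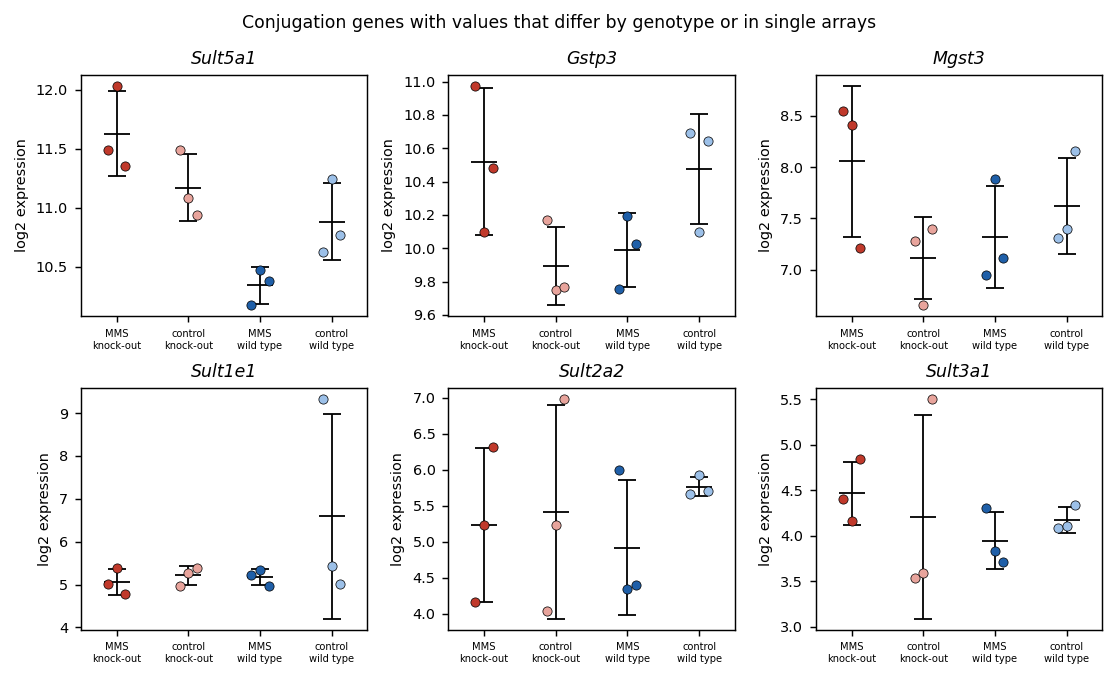
Log2 values in every array of 6 conjugation genes, shown for uncalled differences by genotype or for values that rest on single arrays (points are arrays, horizontal bars at the centre group means, capped vertical bars the SD of 3 arrays, and vertical axes differ between panels and do not start at 0). In the fit as reported, 0 of the 40 genes were called for Aag loss or for the difference of the responses. Sult5a1 is higher in all MMS-treated knock-out arrays than in all MMS-treated wild-type arrays, Sult1e1 stands at 9.33 in 1 control wild-type array, and Sult2a2 and Sult3a1 are highest in control knock-out array 3.

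The supply of the conjugated groups showed few calls within either genotype. They are to be read against the shares of all probe sets called, 6.44% in wild-type liver, 1.51% in knock-out liver and 11.3% averaged. Averaged results are given below for PAPS supply only, and averaged calls of the other supply lists are not counted here. Of 17 measured genes of glutathione supply and turnover, 1 fell in wild-type liver, Chac2, which breaks glutathione down (-0.76 ± 0.11, adjusted p = 0.00626), and 1 rose in knock-out liver, Mat1a, which makes S-adenosylmethionine upstream of cysteine synthesis (0.98 ± 0.18, adjusted p = 0.0403). Mat1a read 13.38, 13.47 and 12.96 in MMS-treated knock-out liver, against 12.13, 12.22 and 12.52 in control knock-out liver. Its wild-type arrays read 12.65, 13.11 and 13.13 after MMS, against 12.15, 12.26 and 12.45 in controls. All wild-type MMS arrays were thus also higher than their controls, though limma did not call Mat1a there. Of 11 genes of UDP-glucuronic acid supply, none was called in wild-type liver, and in knock-out liver 1 rose, Slc37a4, the glucose 6-phosphate transporter of the endoplasmic reticulum (0.89 ± 0.18, adjusted p = 0.0466). Of 13 genes of PAPS supply, none was called in wild-type liver and 1 fell in knock-out liver, Bpnt1, which degrades the by-product of sulfation (-0.54 ± 0.11, adjusted p = 0.0437). Averaged over genotypes, Bpnt1 fell by 0.43 ± 0.08 (adjusted p = 0.00713) and Papss2, which makes PAPS, by 0.36 ± 0.07 (adjusted p = 0.0134). The list medians lay between -0.13 and 0.08 in both genotypes, beside -0.05 and -0.06 over all probe sets.

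Regulators and targets around these families were counted against the same shares. Of 22 measured xenobiotic-sensing regulators, the receptors and cofactors that drive phase II genes, none was called in either genotype or averaged, and the same held for 14 export pumps and carriers of conjugates. Among 17 targets of NRF2 and AHR outside the families, which are often used as reporters of those factors, 2 rose in wild-type liver and 3 in knock-out liver, and none fell. Nqo1, a quinone reductase, rose by 1.36 ± 0.20 in knock-out liver (10.4, 10.6 and 10.2 after MMS, against 8.94, 8.72 and 9.50 in controls, adjusted p = 0.0264). Srxn1, which restores oxidised peroxiredoxins, rose by 0.76 ± 0.19 in wild-type (adjusted p = 0.0383) and by 1.18 ± 0.19 in knock-out liver (adjusted p = 0.0297), and Cbr3, a carbonyl reductase, by 0.67 ± 0.14 (adjusted p = 0.0198) and 0.81 ± 0.14 (adjusted p = 0.0318) in the same order.

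Transcripts of the circadian clock moved with treatment and with genotype in these arrays. The clock's PAR bZIP output factors (Dbp, Tef, Hlf) are known in mice to drive xenobiotic-metabolising genes. Of 16 clock genes 5 rose and 3 fell in wild-type liver after MMS (1.99% and 4.45% of all probe sets). None was called in knock-out liver, against 1.51% of all probe sets. Without MMS, 3 were higher in knock-out than in wild-type liver, against 0.0177% of all probe sets. Dbp read 12.49, 12.16 and 12.83 in MMS-treated knock-out liver, against 11.31, 10.64 and 13.04 in control knock-out liver, and 12.49, 12.77 and 12.64 in MMS-treated wild-type liver, against 8.19, 8.14 and 8.58 in control wild-type liver. Arntl, which peaks opposite to Dbp, read 7.57, 8.37 and 7.64 in MMS-treated knock-out liver, against 10.07, 10.20 and 7.06 in control knock-out liver, and 7.75, 7.79 and 7.59 in MMS-treated wild-type liver, against 10.83, 10.81 and 11.01 in control wild-type liver. For both genes control knock-out array 3 lay with the MMS arrays. The part of the clock state in the conjugation results was not tested.

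Some markers of cells other than hepatocytes were called in wild-type liver, where 4.45% of all probe sets were called lower and 1.99% higher, so that 1 call among 10 or 11 markers is read as no result about the list. Of 14 endothelial markers 5 fell (array means 8.67 to 8.81 after MMS, against 9.11 to 9.29 in controls), of 12 stellate cell and fibroblast markers 3 fell (8.64 to 9.03, against 9.25 to 10.03), and of 11 lymphocyte markers 2 fell (5.77 to 5.94, against 6.38 to 6.59). Of 11 macrophage markers 1 rose and 1 fell (10.13 to 10.55, against 10.19 to 10.71). Of 10 pericentral hepatocyte markers 1 fell, Rhbg (-1.002 ± 0.20, adjusted p = 0.0173), and none of 7 periportal markers was called. In knock-out liver none of these lists had a call, and 1 of 7 cholangiocyte markers rose, Krt19. There 0.747% of all probe sets were called higher, and this single call is likewise read as no result about the list. Hepatocyte markers, of which none was called, averaged 13.65 to 13.80 in MMS-treated wild-type arrays, against 13.76 to 13.79 in control wild-type arrays. The part of these cells in the conjugation results was not tested, and in whole liver fewer cells of a type cannot be told apart from less RNA per cell.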

How the data were processed

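Each of 12 mice gave 1 liver RNA sample and 1 Affymetrix array. The deposited values are on a log2 scale (the base was inferred from their range) and were made by the authors with RMA, per the submitters' processing notes, so background correction, between-array normalization and probe summary had been done. Cell files and detection calls were not used here, and differences near either end of the scale may be compressed.

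Of 22690 probe sets, 64 controls were left out and 22626 tested. Gene symbols came from the platform annotation (20380 probe sets with 1 symbol, 691 with several, 1555 with none), and 20351 of the 20380 were found by gene ID and updated. limma 3.58.1 in R 4.3.3 fitted 1 mean per group over all 12 arrays (8 residual degrees of freedom), with Benjamini-Hochberg adjustment over all probe sets. Contrasts covered the effect of MMS within either genotype and over both, the effect of Aag loss within either treatment and over both, and the difference of the MMS effects. The fit was tested on simulated data. Titles mark replicates as separate animals, and 3 per group limits the precision. Mpg was tested by exact permutation within treatments.

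The alternatives were median centring, quantile normalization, a filter at the 25th percentile of means, the animal number as a block, a trended robust variance, averaging all probe sets of a gene, and leaving out arrays. Animal numbers shared between groups were not taken as pairs. The members and gene lists were chosen with earlier results of these data known. Genes were named by rule: all called members, per family the brightest and the one with the smallest p in the averaged MMS response, the 3 with the smallest p where none was called, and called genes of the other lists. The other genes with values, among them Sult1e1, Sult2a2, Sult3a1, Mgst2, Mgst3 and Ugt2b5, were chosen after their values were seen.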

Additional observations from a re-analysis of the deposited data

Results flagged for a closer look

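Gsta3, the alpha class enzyme that in mice conjugates aflatoxin epoxide, had MMS differences of opposite sign in the 2 genotypes, with no overlap between groups in either, though limma called neither. It read 14.01, 13.99 and 13.90 in MMS-treated knock-out liver, against 13.81, 13.72 and 13.73 in control knock-out liver, a difference of 0.21 (adjusted p = 0.245). In wild-type liver it read 13.60, 13.85 and 13.83 after MMS, against 13.91, 13.91 and 13.98 in controls, a difference of -0.17 (adjusted p = 0.378). The genotype differences were likewise opposed, 0.21 with MMS (adjusted p = 0.333) and -0.18 in controls (adjusted p = 0.800). The difference of the responses was 0.38 and was not called by limma (adjusted p = 0.236). A second Gsta3 probe set, averaging 13.52, showed -0.07 in knock-out and -0.10 in wild-type liver, with a difference of 0.03.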

How the results depend on the processing

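Leaving out 1 array gave 0 to 5 called conjugation genes after MMS in wild-type liver (5 with all arrays), 0 to 3 in knock-out liver (0), 3 to 6 averaged (5) and 0 to 1 for Aag loss with MMS (0). Median centring left 1 in wild-type liver. A trended robust variance gave 1 in knock-out liver and 1 for Aag loss with MMS, the filter on low values gave 1 for Aag loss with MMS, and leaving out both knock-out arrays numbered 3 gave 4 in knock-out liver, 2 for Aag loss with MMS and 7 averaged (Sult1a1 and Gstm7 in). The Gstm7 response in wild-type liver became 0.041 with both its probe sets averaged, by the opposite sign of its second probe set. With the animal number as a replicate block, 4 genes were called in wild-type liver (Ugt2b38 in, Gstm7 and Sult1b1 out) and 4 averaged. Deviations of the 18 same-numbered pairs correlated at -0.475 to 0.403, with 7 over 0.1, so the numbers were not taken to pair the animals. Over all probe sets, calls in knock-out liver were 341 as reported, 971 with the filter, 533 after quantile normalization, 19 with the block, 1029 with the trended variance and 3326 without both arrays numbered 3. Without both arrays numbered 3 they were also 2222 in wild-type liver, against 1458 as reported, 4188 averaged, against 2551, 1353 for Aag loss with MMS, against 4, and 514 for the difference of the responses, against 0. For Aag loss with MMS the filter gave 80 and the trended variance 64, for the difference they gave 30 and 28, and for Aag loss averaged 11 and 12, against 6 as reported and 3 with the block. Leaving out 1 array gave 274 to 1798 in wild-type liver, 0 to 3264 in knock-out liver, 1233 to 4307 averaged, 3 to 1118 for Aag loss with MMS, 4 to 18 for Aag loss without MMS (9), 3 to 13 for it averaged and 0 to 158 for the difference. The share of higher calls in wild-type liver was 30.93% as deposited, 53.69% after quantile normalization and 72.76% after centring, which moved the median of all probe sets there to 0.14, against -0.05. The causes were not tested. No pseudocount applies to values already on a log scale.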

Other observations

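A list of conjugating enzymes outside the Gst, Ugt and Sult families, which also holds the oxidase Aox1, had few calls. Of 26 measured genes, 1 was called in wild-type liver, 1 in knock-out liver and 4 averaged. In that order, 6.44%, 1.51% and 11.3% of all probe sets were called. Nnmt, which methylates nicotinamide, rose in wild-type liver by 1.13 ± 0.20 (adjusted p = 0.0112), with 12.74, 12.95 and 12.80 after MMS, against 11.83, 11.74 and 11.52 in controls. As3mt, which methylates arsenic, rose in knock-out liver by 1.17 ± 0.21 (adjusted p = 0.0365), with 10.43, 10.34 and 10.08 after MMS, against 8.91, 9.08 and 9.36 in controls. Neither group pair overlapped. Averaged over genotypes, Nnmt, As3mt and Aox1 (0.40 ± 0.10, adjusted p = 0.0273) rose. Aox1 is an aldehyde oxidase and not a conjugating enzyme. Hnmt, which methylates histamine, fell by 0.47 ± 0.13 (adjusted p = 0.0363).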
